A study of Mus musculus with 8 samples.

Results

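The 9 genes described here steer the hepatocyte between making glucose and burning it: Pck1, G6pc, Fbp1 and Pcx, which encode gluconeogenic enzymes, Ppargc1a, which encodes a coactivator of gluconeogenic genes, Pklr, Pkm and Hk2, which encode glycolytic enzymes, and Slc2a2, which encodes the glucose transporter GLUT2. They were chosen by name from 21938 protein-coding genes of the mouse annotation. In each list of open chromatin, lines that repeat an interval were collapsed and the distinct intervals were ranked by the deposited -log10 p, with rank 1 the strongest. Intervals overlapping a gene body extended by 10 kb were taken, and those within 1 kb of a transcription start (promoter) were kept apart from the others (distal). Merged across lists, the 9 loci held 177 of 315767 regions, of which 18 were promoter regions of the genes themselves, 7 were promoter regions of another gene and 152 were distal. Of these, 50 regions were listed in all 8 lists and 59 in 1 list.

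Open chromatin was mapped with bulk ATAC-Seq, an assay in which the Tn5 transposase cuts exposed DNA, in hepatocytes released from the liver by collagenase perfusion. The mice were C57BL/6 by the labels and male C57BL/6J by the study's methods, on a normal diet, and 10-12 weeks old by the labels, where the methods give a younger age at surgery, and no allele or drug was added in any group. The 0 h group was undamaged liver, and in the other 3 groups the mice had a partial hepatectomy (PHx) 48, 72 or 96 h earlier, giving 2 libraries per group. Only these peak lists were used, so no expression was measured here, and the 3 later groups share the same 2 undamaged libraries.

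In the fasted liver, pyruvate carboxylase (Pcx) and cytosolic PEP carboxykinase (Pck1) bypass the last step of glycolysis, fructose-1,6-bisphosphatase (Fbp1) reverses its commitment step, and glucose-6-phosphatase (G6pc) frees glucose, which leaves through GLUT2. Glucagon, through cAMP and the factor CREB, and glucocorticoids raise Pck1, G6pc and Ppargc1a, and insulin lowers them. In the fed liver glycolysis ends at the liver pyruvate kinase encoded by Pklr, whereas Hk2 and the M-type pyruvate kinase of Pkm are typical of proliferating and extrahepatic cells.

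The lists held 105206 to 154577 distinct intervals, and the -log10 p of the 50000th interval ranged from 8.05 to 15.2, so the lists differ in length and in depth of signal, and they give no read counts. Promoters of hepatocyte marker genes were listed for 10 of 10 genes in both undamaged libraries and for 6 to 10 after PHx. In the 50000 strongest intervals there were 8 in each undamaged library and 4 to 7 afterwards. Of markers of other liver cells, promoters were listed for 0 of 3 leukocyte genes, 0 to 1 of 6 Kupffer cell genes, 2 to 4 of 6 endothelial genes, 3 to 5 of 6 stellate cell genes and 2 to 4 of 5 cholangiocyte genes. In bulk cells, fewer cells with an open site and less opening per cell cannot be told apart. The part of list length and of other cells in the results was not tested beyond the values given. The list of 72 h replicate 2 carries another run name than the other 7, and the labels give no batch.

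Promoter sequences are given for the members whose promoters carry the pattern described, and for Pck1, G6pc and Ppargc1a, whose hormone response sites are well known. Each is the 250 bases before the RefSeq start in GRCm38.p6 (mm10), on the gene's strand, 5′ to 3′. For Ppargc1a, whose RefSeq window starts at another first exon, the bases before the GENCODE start that carries the open interval were read from the same genome. All 9 members matched the RefSeq promoter table. Capitals mark matches, on either strand, to the motifs searched: CRE (TGACGTCA) and its half-site TGACG, E-box CACGTG, hypoxia response GACGTG or TACGTG, insulin response TGTTTTG, FOXA TGTTTAC, FOXO TTGTTTAC, HNF1 half-site GTTAAT, HNF4 TGNACTTTG or CAAAGTCCA, C/EBP TTGCNNAA or its reverse complement, AP-1 TGAGTCA, Sp1 GGGCGG and TATA box TATAAA. The CRE contains its half-site and FOXO contains FOXA. Longer carbohydrate, HNF1 and glucocorticoid receptor elements were searched only in a few set forms, and those forms had no match in these windows. Other forms of these elements were not searched, so the windows, that of Pklr included, are not shown to lack them.
Slc2a2, chr3:28697653-28697902, + strand: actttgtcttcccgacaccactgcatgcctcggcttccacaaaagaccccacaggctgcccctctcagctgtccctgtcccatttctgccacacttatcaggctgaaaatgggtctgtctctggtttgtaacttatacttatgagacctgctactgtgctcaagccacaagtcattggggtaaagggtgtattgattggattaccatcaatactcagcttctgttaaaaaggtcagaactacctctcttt
Hk2, chr6:82774455-82774704, - strand: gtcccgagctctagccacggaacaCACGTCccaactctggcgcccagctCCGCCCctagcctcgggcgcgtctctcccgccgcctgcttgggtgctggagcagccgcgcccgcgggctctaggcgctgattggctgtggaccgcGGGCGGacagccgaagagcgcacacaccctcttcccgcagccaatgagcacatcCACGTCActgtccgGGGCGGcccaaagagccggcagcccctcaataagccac
Pcx, chr19:4510222-4510471, + strand: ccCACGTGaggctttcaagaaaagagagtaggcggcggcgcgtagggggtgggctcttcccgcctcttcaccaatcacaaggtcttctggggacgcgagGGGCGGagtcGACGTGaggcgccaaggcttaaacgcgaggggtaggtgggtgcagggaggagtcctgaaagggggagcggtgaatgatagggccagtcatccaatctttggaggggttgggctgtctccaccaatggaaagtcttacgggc
Pklr, liver start, chr3:89136373-89136622, + strand: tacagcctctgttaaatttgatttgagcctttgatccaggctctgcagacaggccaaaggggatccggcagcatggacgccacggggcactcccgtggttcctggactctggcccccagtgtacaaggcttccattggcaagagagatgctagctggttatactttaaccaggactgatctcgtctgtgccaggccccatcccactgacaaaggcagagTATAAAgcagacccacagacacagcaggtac
Pck1, chr2:173152823-173153072, + strand: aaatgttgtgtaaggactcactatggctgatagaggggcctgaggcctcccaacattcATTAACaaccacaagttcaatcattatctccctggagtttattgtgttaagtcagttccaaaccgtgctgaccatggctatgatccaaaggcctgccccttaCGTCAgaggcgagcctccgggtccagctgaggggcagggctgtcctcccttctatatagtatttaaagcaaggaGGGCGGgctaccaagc
G6pc, chr11:101367466-101367715, + strand: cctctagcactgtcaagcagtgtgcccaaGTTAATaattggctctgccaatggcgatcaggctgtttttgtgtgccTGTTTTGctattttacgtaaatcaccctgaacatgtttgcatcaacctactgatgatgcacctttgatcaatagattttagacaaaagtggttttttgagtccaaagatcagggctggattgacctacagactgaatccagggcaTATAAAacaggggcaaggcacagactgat
Ppargc1a, GENCODE start, chr5:51553923-51554172, - strand: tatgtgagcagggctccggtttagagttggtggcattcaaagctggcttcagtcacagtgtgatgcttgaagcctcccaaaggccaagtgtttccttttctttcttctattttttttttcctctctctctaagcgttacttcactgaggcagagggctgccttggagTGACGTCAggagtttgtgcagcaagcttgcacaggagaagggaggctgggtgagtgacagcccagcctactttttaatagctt

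The Hk2 window was rich in G and C, at 67.3%, with 3 Sp1 matches and a CACGTC (the reverse complement of the hypoxia response letters) at -226 and again at -52 from the start, where it overlaps a CRE half-site. The Slc2a2 window held 48.0% G and C and none of the motifs, and the median of 20150 coding promoter windows of 300 bases was 57.0%. The Pck1 window held a CRE half-site from -90 to -86, and G6pc an insulin response match from -174 to -168 and a TATA box from -29 to -24. Ppargc1a held a whole CRE from -83 to -76. Across coding promoter windows, 2.31% held a CRE, 24.2% a CRE half-site, 7.29% the hypoxia response letters GACGTG, 5.17% the insulin response match, 12.1% the TATA box and 47.8% an Sp1 match. The Sp1 and CRE half-site letters are thus common, and the whole CRE is the least common of these. A match is a description of the letters and not a site of binding.

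The promoters of 7 of the 9 genes were listed in all 8 lists, Pck1 in 7 and G6pc in 6. Of the 7, after PHx the Slc2a2 promoter ranked below both undamaged libraries in all 6 later libraries, and the Hk2 promoter ranked above them in all 6. Among all coding promoters 7.69% were lower and 4.14% higher in all 6. Pcx was lower in both libraries at 48 and 72 h and not at 96 h, and Pklr was higher in both at 48 h. The shares of all coding promoters were 29.2% lower and 16.2% higher at 48 h, and 32.2% lower at 72 h. Fbp1 and Ppargc1a overlapped the undamaged libraries at every time. No member promoter passed the test, a limma fit over the 13220 coding promoters listed in all 8 lists with Benjamini-Hochberg adjustment at 0.05. The lowest adjusted p was 0.265 at 48 h, 0.334 at 72 h, 0.444 at 96 h and 0.165 for the mean of the 3 times. The same fit called 0.0454% of all coding promoters at 48 h, 0.0% at 72 h, 0.00756% at 96 h and 0.0227% for the mean. Differences below are in -log2 rank, later minus 0 h, so that 1 unit is a 2-fold change of the rank and a positive value means a stronger interval after PHx.

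**Figure D1:**
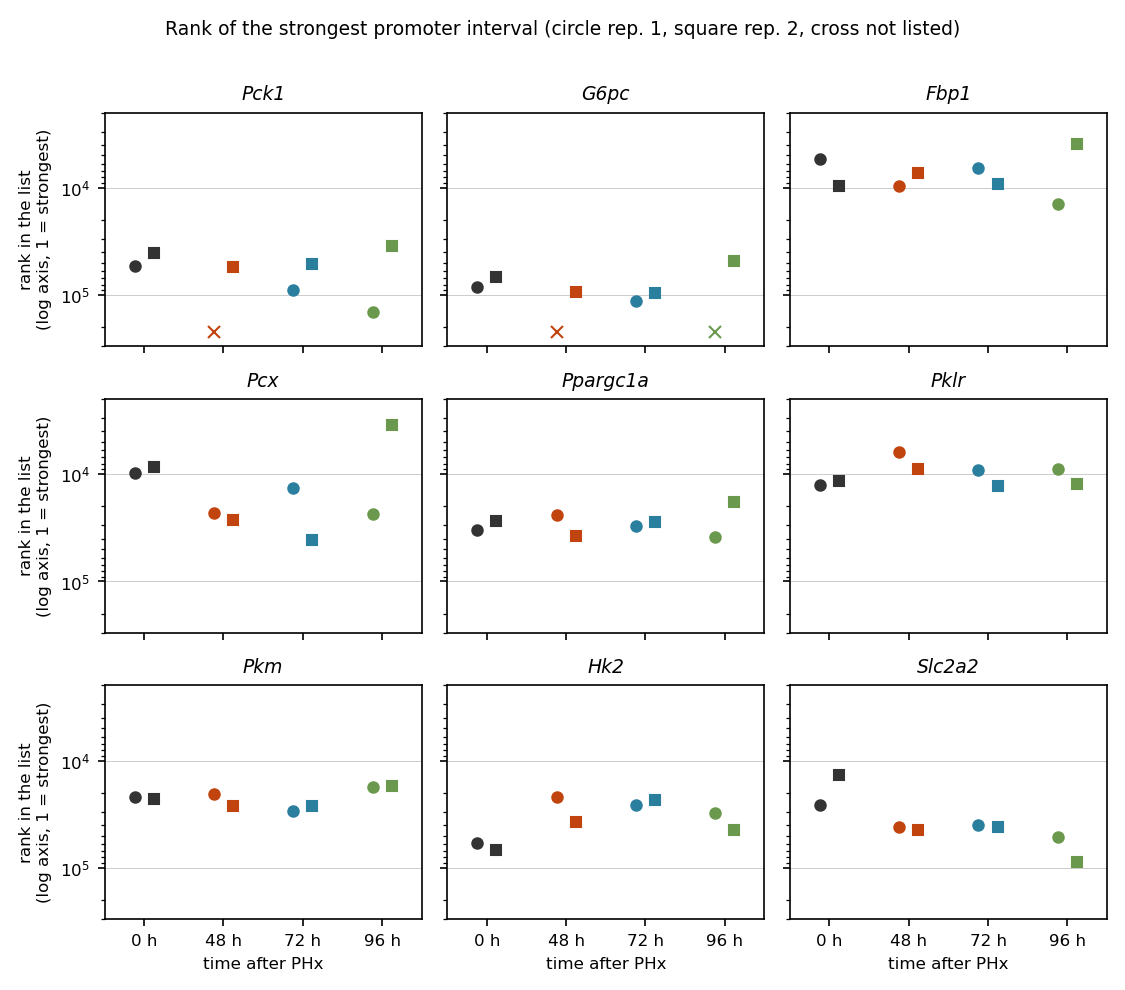
Rank of the strongest promoter interval of each gene in each library (log axis, rank 1 strongest and drawn towards the top), by time after PHx. Circles are replicate 1 and squares replicate 2, and crosses mark libraries whose list held no promoter interval. Slc2a2 lies lower and Hk2 higher in all 6 PHx libraries than in both undamaged libraries.

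Promoters of cell type markers were compared in the same way. Of 6 hepatocyte marker promoters in all 8 lists, 4 were lower in both libraries at 48 h, 5 at 72 h and 2 at 96 h, and 0 were higher, with median differences of -0.50, -0.70 and -0.42. Of all coding promoters 29.2%, 32.2% and 19.9% were lower and 16.2%, 14.6% and 13.6% higher at these times, with medians of -0.20, -0.24 and -0.09. The promoters of Alb and Tat were listed in both undamaged libraries and in neither 48 h library. Of 3 stellate cell promoters in all 8 lists, 2 were higher in both 48 h libraries and 0 lower, Reln with a difference of 1.81 (SE 0.73, adjusted p = 0.298, limma) and Col1a1 with 0.44 (SE 0.53, adjusted p = 0.765). At 72 h 0 of the 3 were higher or lower, and at 96 h 1 was higher, Reln with 1.52 (SE 0.73, adjusted p = 0.929, limma), and 0 lower. Of 2 cholangiocyte promoters, Epcam differed by 1.59 at 48 h (SE 0.78, adjusted p = 0.396, limma) with libraries that overlapped the undamaged ones, and Sox9 by -0.07. None of the marker promoters passed the test. The part of these markers in the results for Slc2a2 and Hk2 was not tested.

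The Slc2a2 promoter interval sat 28 to 56 bp past the annotated start (chr3:28697698-28698193 merged over the lists, in the first exon). It ranked 25994 and 13641 in undamaged liver, 41961 and 44862 after 48 h, 39963 and 41339 after 72 h, and 51269 and 88410 after 96 h. All 6 PHx libraries were weaker than both undamaged ones, with 96 h replicate 2 the weakest. The deposited fold enrichment showed the same order, at 4.74 and 6.06 in the undamaged libraries and 2.51 to 4.28 after PHx, where 16.3% of all coding promoters were lower in all 6. So did the rank as a share of the list, at 20.5% and 13.0% against 26.7% to 69.3%, where 3.79% were lower. The difference in -log2 rank was -1.20 at 48 h (SE 0.45, adjusted p = 0.265, limma), -1.11 at 72 h (SE 0.45, adjusted p = 0.423) and -1.84 at 96 h (SE 0.45, adjusted p = 0.444). For the mean of the 3 times it was -1.38 (SE 0.37), with an unadjusted p of 0.000599 and an adjusted p of 0.165 in the limma fit. The size rested on the undamaged pair: without 0 h replicate 2 the differences were -0.74, -0.64 and -1.37 at the 3 times and -0.92 for the mean, and without 0 h replicate 1 they were -1.67, -1.58, -2.30 and -1.85. Among all coding promoters, 7.69% were lower and 4.14% higher in all 6 PHx libraries, and the median difference of all coding promoters was -0.17.

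The lower ranks at Slc2a2 were not limited to its promoter. The locus held 20 regions, 8 of them in all 8 lists, and 4 of these 8 were lower in all 6 PHx libraries, where 6.05% of all 57473 regions were lower and 4.49% higher. At 48 h, 6 of the 8 were lower in both libraries and 0 higher, against 24.2% and 19.7% of all regions. At 72 h 5 of 8 and at 96 h 5 of 8 were lower and 0 higher, against 22.8% lower and 19.5% higher of all regions at 72 h and 19.5% lower and 16.3% higher at 96 h. The median difference of the 8 regions was -0.83 at 48 h, -0.73 at 72 h and -1.23 at 96 h, beside -0.05, -0.04 and -0.04 over all regions. By rank divided by list length, 2 of the 8 (the promoter and the intron region at 16621 bp) were lower in all 6 PHx libraries, where 2.47% of all regions were. By the fold enrichment as deposited it was 1, the promoter, where 12.8% of all regions were lower.

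The 2 strongest intron regions of Slc2a2 are shown as the 200 bases around the summit, because they carry the largest 48 h difference and the strongest distal signal of the locus. They lay 16621 bp and 24119 bp past the start, the latter with an AP-1 match across its summit, which 5.23% of all region windows held.
Slc2a2 intron, chr3:28714424-28714623, + strand: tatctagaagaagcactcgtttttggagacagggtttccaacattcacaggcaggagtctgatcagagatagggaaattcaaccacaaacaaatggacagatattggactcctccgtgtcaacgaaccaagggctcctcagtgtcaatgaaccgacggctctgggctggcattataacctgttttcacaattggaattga
Slc2a2 intron, chr3:28721922-28722121, + strand: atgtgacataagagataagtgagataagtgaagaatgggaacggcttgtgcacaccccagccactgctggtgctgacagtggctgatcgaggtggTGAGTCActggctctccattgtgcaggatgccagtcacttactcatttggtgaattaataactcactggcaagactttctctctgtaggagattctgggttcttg

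The region at 16621 bp ranked 7436 and 7888 in undamaged liver, then 21096 and 18315 after 48 h, 13163 and 17639 after 72 h, and 35381 and 17151 after 96 h. By rank every PHx library was weaker than both undamaged ones, with a difference of -1.36 at 48 h (SE 0.59, adjusted p = 0.357, limma over 57473 regions). By fold enrichment 96 h replicate 2, at 7.17, was above undamaged replicate 2, at 7.09. The region at 24119 bp ranked 5184 and 8093 in undamaged liver, 14562 and 9125 after 48 h, 15648 and 10144 after 72 h, and 27828 and 26113 after 96 h. It too was weaker in all 6 by rank, most so at 96 h, and for the mean of the 3 times the difference was -1.28 (SE 0.50, adjusted p = 0.419, limma). On the other scales it overlapped. As a share of the list, replicate 2 at 48 h (6.55%) and at 72 h (6.56%) was stronger than undamaged replicate 2 (7.69%). The same held by fold enrichment, at 7.41 and 7.05 against 6.67. A narrower region at 24822 bp ranked 23799 and 25495 in undamaged liver and 27209 to 67250 after PHx. The intron region at 27593 bp ranked 23830 and 34093 in undamaged liver and was weaker only at 48 h, at 51124 and 50171, with 23630 to 32544 later. The region at -2118 bp varied widely between libraries of 1 time, with 51108 and 18159 in undamaged liver. A second promoter-window region at 1076 bp, listed in 7 lists, ranked 70807 and 52766 in undamaged liver and 73679 to 103866 where listed after PHx.

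**Figure D2:**
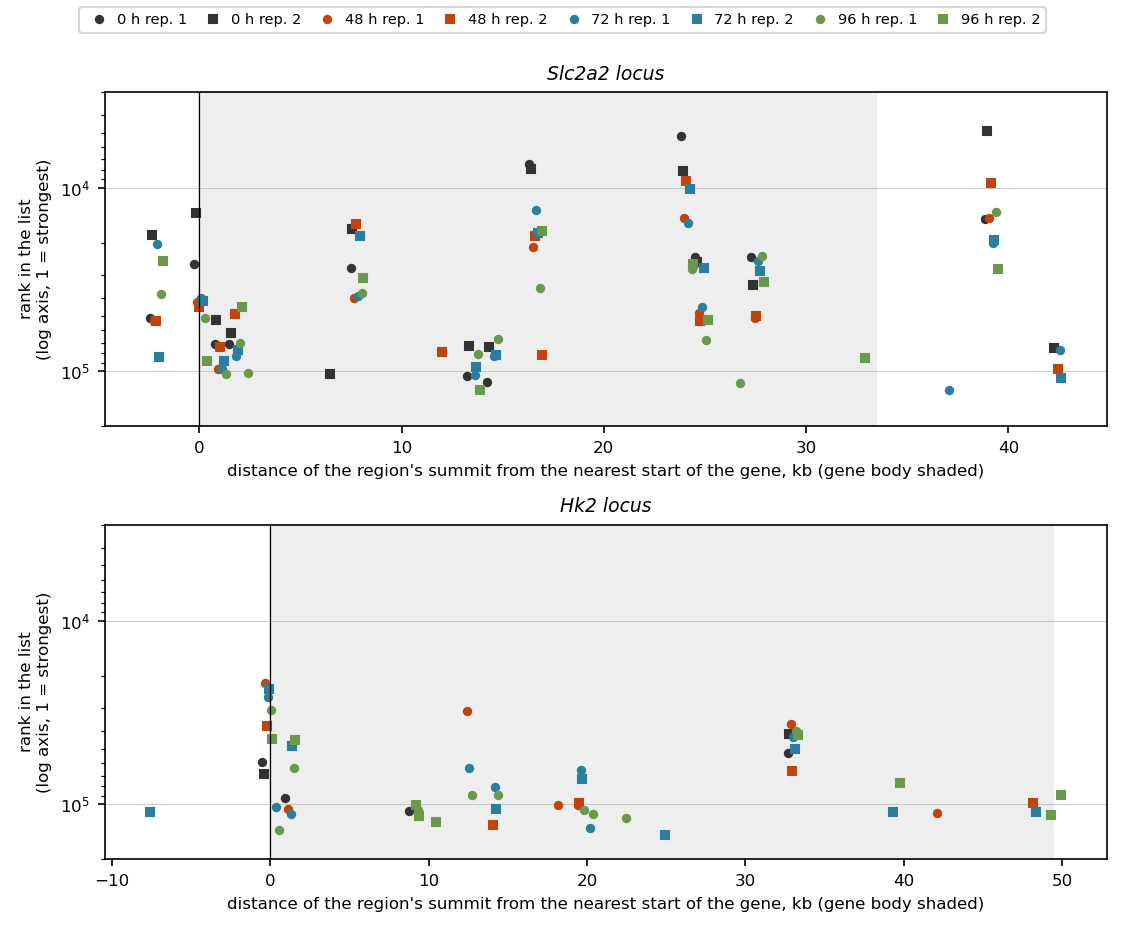
Regions at the Slc2a2 and Hk2 loci by distance of their summit from the nearest annotated start (kb, gene body shaded) and rank in each library (log axis, strongest towards the top). Points of 1 region are spread sideways by library, and a library without the region has no point. At Slc2a2 the undamaged libraries lie above the others at the start and at 16621, 24119 and 24822 bp, and at Hk2 they lie below the others at the start.

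The Hk2 promoter, of a high-affinity hexokinase scarce in normal adult hepatocytes, went the other way. Its interval (chr6:82773311-82774801, summit -190 bp from the start) ranked 59221 and 68290 in undamaged liver, 21853 and 37601 after 48 h, 26016 and 23488 after 72 h, and 30636 and 44448 after 96 h. All 6 PHx libraries were stronger than both undamaged ones. Among all coding promoters 4.14% were higher in all 6 by rank, and 6.91% by rank over list length. The fold enrichment gave the same order, at 5.22 and 4.22 against 5.46 to 9.15, though 96 h replicate 2 at 5.46 was close to the undamaged 5.22, and 0.923% of all coding promoters were higher in all 6 on that scale. The difference was 1.15 at 48 h (SE 0.45, adjusted p = 0.288, limma), 1.36 at 72 h (SE 0.45, adjusted p = 0.334) and 0.79 at 96 h (SE 0.45, adjusted p = 0.947). With each library left out the difference ranged from 0.76 (without 48 h replicate 1) to 1.54 at 48 h, from 1.26 to 1.47 at 72 h and from 0.52 (without 96 h replicate 1) to 1.05 at 96 h. For the mean of the 3 times it was 1.10 (SE 0.37, adjusted p = 0.277, limma), and 0.97 to 1.23 with each library left out.

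Hk2 also had more regions listed after PHx. Its 49430 bp gene with 10 kb on each side had 4 and 2 regions in the undamaged lists, 7 and 5 after 48 h, 8 and 9 after 72 h, and 10 and 9 after 96 h. All 6 PHx lists held more than both undamaged lists, as at 3.17% of 19528 coding loci, whereas 0.41% of loci had fewer in all 6. Per 100000 intervals of the list the counts were 3.16 and 1.90 at 0 h and 3.59 to 7.06 after PHx, and on that scale 2.4% of loci were higher and 9.08% lower in all 6. The lower ones included 2 members, Fbp1 and Pcx. This count was chosen after the values were seen. Of the added regions, an intron region at 19556 bp was unlisted at 0 h and ranked 65461 to 107847 in 5 PHx lists, and one at 14136 bp was unlisted at 0 h and ranked 80767 to 129827 in 4 PHx lists. A stronger one, at 12533 bp, was unlisted at 0 h and listed in replicate 1 of each later time, at 31143 after 48 h, 63374 after 72 h and 89894 after 96 h. The distal region listed in all 8 lists, in an intron at 32993 bp, ranked 52891 and 41481 in undamaged liver and 36504 to 66233 after PHx, and it overlapped the undamaged libraries at every time.

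Pcx, whose product makes oxaloacetate from pyruvate, ranked lower at its first start at 48 and 72 h. The interval (chr19:4509803-4510847) ranked 9845 and 8638 in undamaged liver, 22824 and 26511 after 48 h, 13578 and 41458 after 72 h, and 23409 and 3521 after 96 h. Both 48 h and both 72 h libraries were weaker than the undamaged ones, and the 96 h libraries lay on opposite sides of them. The difference was -1.42 at 48 h (SE 0.67, adjusted p = 0.373, limma) and -1.36 at 72 h (SE 0.67, adjusted p = 0.501). Leaving out 72 h replicate 2 gave -0.56 at that time, and leaving out replicate 1 gave -2.17. At 96 h it was 0.02 with both libraries and -1.34 without 96 h replicate 2. The start of the shorter transcripts (chr19:4593810-4594685) ranked 38020 and 29098 in undamaged liver and 39650 and 45055 after 48 h.

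The Pcx gene is long, at 111281 bp, and its locus held 51 regions, 13 of them in all 8 lists. At 48 h, 10 of the 13 were lower in both libraries and 1 higher, with a median difference of -0.45, where 24.2% of all regions were lower and 19.7% higher. Over all 6 PHx libraries 2 of the 13 were lower and 0 higher, beside 6.05% and 4.49%. One, in an intron at 24323 bp, ranked 37104 and 32025 in undamaged liver and 44330 to 76700 after PHx. The other, in an intron at -5659 bp from the start of the shorter transcripts, ranked 31727 and 28273 in undamaged liver and 48403 to 73514 after PHx, a difference of -0.95 for the mean of the 3 times (SE 0.34, adjusted p = 0.389, limma). The strongest distal region, in the intron at 26277 bp, ranked 12592 and 11493 in undamaged liver and 9311 to 49934 after PHx.

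The Pck1 and G6pc promoters, of PEP carboxykinase and glucose-6-phosphatase, were the weakest of the gluconeogenic group in these lists. The Pck1 promoter ranked 53286 and 40352 in undamaged liver. At 48 h it was not listed in replicate 1 and ranked 54470 in replicate 2. It ranked 90409 and 50922 after 72 h, and 143592 and 34918 after 96 h, so that the 2 libraries at 96 h spanned both sides of the undamaged pair. The G6pc promoter ranked 84761 and 67449 in undamaged liver, was not listed in 48 h replicate 1 and ranked 93483 in replicate 2, and ranked 112361 and 95383 after 72 h. At 96 h it was not listed in replicate 1 and ranked 48157 in replicate 2, its strongest value. An unlisted interval lay past the deposited threshold and may still carry signal. With unlisted promoters kept at the last rank, the 48 h difference was -0.79 for Pck1 (SE 0.50, adjusted p = 0.586, limma) and -0.47 for G6pc (SE 0.38, adjusted p = 0.687).

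The open chromatin of both genes was stronger outside the promoter. At Pck1, a region just past the gene, at 7022 bp, ranked 2551 to 10281 over the 8 lists, with 6502 and 4486 in undamaged liver, 10281 and 2551 after 48 h, 3955 and 3834 after 72 h, and 3582 and 4997 after 96 h. It overlapped the undamaged libraries at 48 h, with a difference of 0.08 (SE 0.75, adjusted p = 0.980, limma). The region at -6124 bp was lower in all 6 PHx libraries, at 24967 and 16713 in undamaged liver and 27590 to 40795 after PHx, with a mean difference of -0.73 (SE 0.40, adjusted p = 0.579, limma). At G6pc, a region past the gene at 11582 bp ranked 15867 and 8725 in undamaged liver and 43430 and 20823 after 48 h, lower in both, and 14283 to 23812 later, with a 48 h difference of -1.35 (SE 0.58, adjusted p = 0.351, limma).

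The Fbp1 promoter was among the strongest of the group and overlapped the undamaged pair at every time. It ranked 5429 and 9718 in undamaged liver, 9591 and 7322 after 48 h, 6592 and 9267 after 72 h, and 14118 and 3897 after 96 h. The 48 h difference was -0.21 with an SE of 0.68, so changes of over 1 unit in either direction lie within 2 SE. Of the 5 Fbp1 regions in all 8 lists, 0 were higher or lower in both 48 h libraries, where 24.2% of all regions were lower and 19.7% higher. In the 72 h pair 3 were lower and 0 higher, beside 22.8% lower and 19.5% higher of all regions. In the 96 h pair 0 were either, where all regions had shares of 19.5% lower and 16.3% higher. The strongest distal region, at 31929 bp and past the gene, was 1 of the 3, at 9510 and 12860 in undamaged liver, 7818 and 12495 after 48 h, 14257 and 18531 after 72 h, and 18560 and 6482 after 96 h. An upstream region at -5415 bp ranked 45513 and 28609 in undamaged liver, was in neither 48 h list, and ranked 33883 to 73243 later.

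Ppargc1a had 2 neighbouring promoter regions of like strength, the 1 at its start (summit -3 bp, with the CRE shown above) and 1 at 1093 bp in the first intron. The stronger interval in each list ranked 32967 and 27479 in undamaged liver, 23950 and 37758 after 48 h, 30707 and 28180 after 72 h, and 38885 and 18320 after 96 h. These overlapped at every time, and the region at the start itself ranked 33024 and 36535 in undamaged liver and 23950 to 39485 after PHx. The strongest distal region, in an intron at 42213 bp, ranked 8151 and 9323 in undamaged liver, 10519 and 16075 after 48 h, 18536 and 8758 after 72 h, and 7003 and 5262 after 96 h. Both 48 h libraries were weaker and both 96 h libraries stronger than the undamaged pair.

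Pklr has 2 alternative first exons, a liver and an erythroid one, and its open interval (chr3:89136231-89136874) had its summit within 58 bp of the GENCODE liver start in every list. It ranked 12544 and 11494 in undamaged liver, 6246 and 8930 after 48 h, 9122 and 12784 after 72 h, and 8955 and 12314 after 96 h. By rank both 48 h libraries were stronger than the undamaged pair, and the 72 and 96 h libraries overlapped it. By rank over list length all 6 PHx libraries were stronger, at 5.3% to 9.65% against 9.89% and 10.9%, as were 6.91% of all coding promoters. By fold enrichment both 72 h (10.3 and 9.14) and both 96 h libraries (9.47 and 9.6) exceeded the undamaged pair. On that scale 8.84% of all coding promoters were higher at 72 h and 8.49% at 96 h. The 48 h difference was 0.69 (SE 0.61, adjusted p = 0.672, limma), or 0.43 without 48 h replicate 1, and the 48 h fold enrichments of 8.89 and 8.66 lay between the undamaged 7.09 and 9.08. The TATA box of the sequence shown starts 31 bases before the RefSeq liver start, at -31. The strongest distal region, at -3525 bp, ranked 24893 and 53381 in undamaged liver and 14965 to 56456 after PHx.

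The Pkm promoter, in a window of 65.0% G and C, ranked 22085 and 22848 in undamaged liver, 20449 and 26669 after 48 h, 29764 and 26685 after 72 h, and 17469 and 17213 after 96 h. It overlapped the undamaged pair at 48 h, was weaker in both libraries at 72 h and stronger in both at 96 h, with differences of -0.33 (SE 0.50) and 0.37 (SE 0.50). By rank over list length the 72 h libraries overlapped the undamaged pair and the difference turned to 0.024. By fold enrichment the 96 h libraries, at 8.95 and 8.85, lay between the undamaged 9.56 and 8.4. The intron region at 11548 bp ranked 10292 and 11342 in undamaged liver, 42935 and 16697 after 48 h, 13310 and 9498 after 72 h, and 5290 and 18113 after 96 h. Both 48 h libraries were weaker, with a difference of -1.31 (SE 0.64, adjusted p = 0.422, limma). The strongest distal region, in the intron at 21958 bp, ranked 11751 and 27404 in undamaged liver and 4551 to 27527 after PHx.

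By count, 2 of the 7 promoters (Pklr and Hk2) were higher at 48 h and 2 (Pcx and Slc2a2) lower, beside 16.2% higher and 29.2% lower of all coding promoters. At 72 h 1 was higher (Hk2) and 3 lower (Pcx, Pkm and Slc2a2), beside 14.6% and 32.2%, and at 96 h 2 were higher (Pkm and Hk2) and 1 lower (Slc2a2), beside 13.6% and 19.9%. The median difference of the 7 was -0.06 at 48 h, and that of all coding promoters -0.20. At these background shares the counts alone do not set the members apart. By fold enrichment as deposited, 5 of the 7 were lower at 48 h, as were 70.6% of all coding promoters.

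Of the 50 member regions in all 8 lists, 4 were higher and 23 lower in both 48 h libraries, beside 19.7% and 24.2% of all regions, and 1 was higher and 7 lower in all 6 PHx libraries, beside 4.49% and 6.05%. Of the 23, 10 lay at Pcx and 6 at Slc2a2. The median difference over the 50 was -0.24 at 48 h, -0.20 at 72 h and -0.0 at 96 h, and over all regions -0.05, -0.04 and -0.04. No member region was called in the limma fit over all regions, in which the lowest adjusted p of a member was 0.262 (the Slc2a2 promoter, mean of the 3 times). That fit called 0.0122% of all regions at 48 h and 0.0% in each of the other contrasts. At an unadjusted p under 0.05 there were 7 member regions at 48 h, 5 at 72 h, 7 at 96 h and 7 for the mean, where 11.8%, 7.93%, 6.16% and 9.37% of all regions had one.

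**Figure D3:**
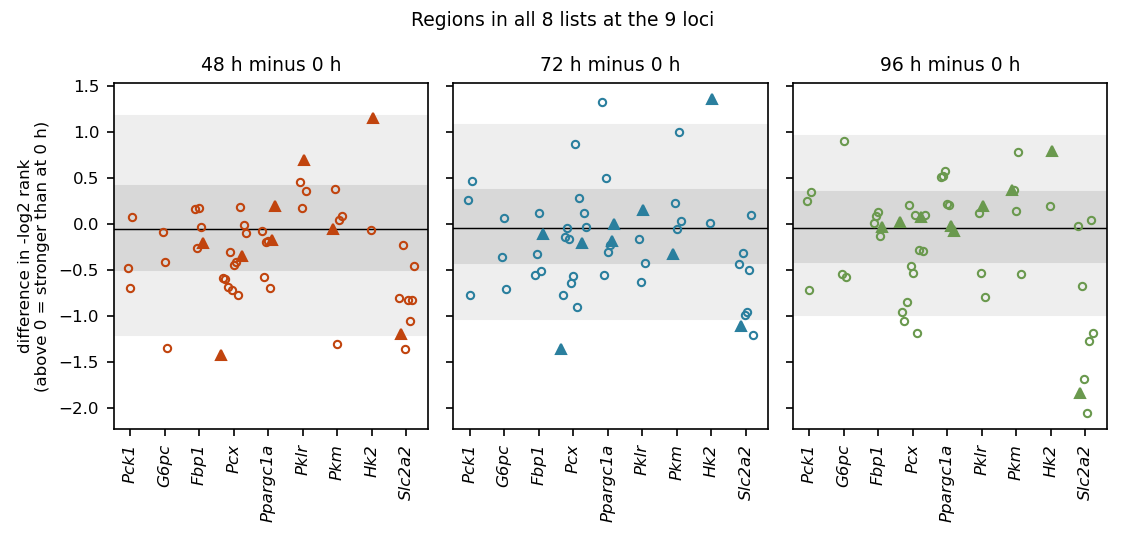
Difference in -log2 rank from 0 h (above 0, stronger than at 0 h) of the 50 member regions in all 8 lists, by locus, at 48, 72 and 96 h. Triangles are promoter regions and open circles other regions, the line is the median of all 57473 regions, and the dark and light bands hold their middle 50% and 90%. The Slc2a2 regions lie mostly below the median at each time, and the Hk2 promoter above it.

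In the wider pathway more promoters were lower than higher at 48 h, as among all coding promoters. Of 53 other genes for enzymes and transporters of glucose and pyruvate, 49 had a promoter in all 8 lists, and at 48 h 4 were higher and 19 lower, with a median difference of -0.37, beside 16.2% higher, 29.2% lower and a median of -0.20 over all coding promoters. Of 24 regulators all had one, and 2 were higher and 9 lower, with a median of -0.33. In all 6 PHx libraries 0 enzymes were higher and 8 lower, and 0 regulators higher and 3 lower, beside 4.14% higher and 7.69% lower of all coding promoters. The limma fit called 0 of these in any contrast, and at 48 h 6 enzymes and 1 regulator had an unadjusted p under 0.05, as had 12.5% of all coding promoters.

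The pathway promoters furthest from 0 h at 48 h, among those whose libraries did not overlap, were mostly lower. The promoter of Pdk1, a kinase that shuts pyruvate dehydrogenase, ranked 781 and 777 in undamaged liver and 2026 to 4757 after PHx. It was weaker in all 6 PHx libraries, with a 48 h difference of -1.70 (SE 0.75, adjusted p = 0.337, limma). Ppp1r3b, which targets a phosphatase to glycogen, ranked 7528 and 10543 in undamaged liver and 14798 to 35403 after PHx, again weaker in all 6. Tpi1, for triose-phosphate isomerase, differed by -1.59 at 48 h (SE 0.51, adjusted p = 0.213, limma) and Gpt2, for an alanine aminotransferase, by -1.54 (SE 0.80, adjusted p = 0.421). Pfkfb3, whose product makes an activator of glycolysis, was higher, at 523 and 1345 in undamaged liver and 500 and 193 after 48 h, a difference of 1.43 (SE 0.90, adjusted p = 0.513, limma).

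**Figure D4:**
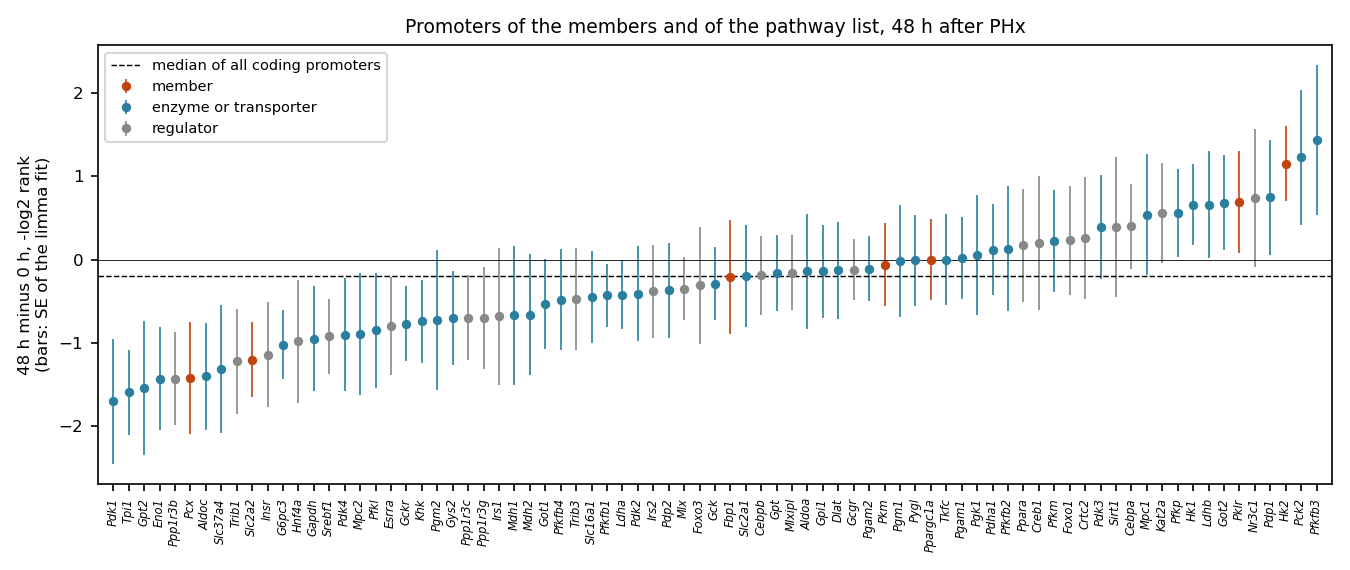
Difference in -log2 rank between 48 and 0 h of the promoters of the members (orange), of other pathway enzymes and transporters (blue) and of regulators (grey) listed in all 8 lists and reported here, with the SE of the limma fit. The dashed line is the median of all coding promoters, at -0.20. Hk2 and Pklr lie near the upper end, and Pcx and Slc2a2 near the lower end at -1.42 and -1.20.

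Across the 8 libraries, the coding promoters whose -log2 rank followed that of Slc2a2 most closely were Git2 (Pearson r = 0.954), Prpf4 (r = 0.951) and Cdc26 (r = 0.951). Those nearest Hk2 were Tbc1d30 (r = 0.977), Shisa8 (r = 0.965) and Olfr94 (r = 0.953), and those nearest Pcx were Zfp994 (r = 0.986), Zfp628 (r = 0.985) and Hectd4 (r = 0.983). For Fbp1 the nearest was Macrod2 (r = 0.984), for Ppargc1a Zfp580 (r = 0.972), for Pklr Atad2b (r = 0.968) and for Pkm Gba2 (r = 0.95). None of these is a gene of the pathway list. These are the highest of 13220 promoters searched over 8 libraries in 4 groups, and all points share the libraries and their list lengths.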

How the data were processed

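Bulk ATAC-Seq of mouse hepatocytes was deposited as 8 lists of peaks, 1 per library, called by the authors on each library alone against mm10. Per the study's methods and the run names, the ENCODE pipeline trimmed reads, aligned them with Bowtie2, removed duplicates and blacklisted regions, shifted ends for Tn5 and called peaks with MACS2. Versions are not given in the sources used here. Each line holds an interval, a summit, a display score that the authors deposited and that was not analysed, a fold enrichment, a -log10 p and a -log10 q value as the authors deposited them, and the lowest deposited -log10 p was 2.00. The lists give no read counts, so read depth is unknown, and precision was judged from the spread of the 2 libraries of a time point. Labels gave the groups.

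Lines sharing an interval were collapsed to the highest -log10 p and ranked within the list. A promoter was the strongest interval overlapping a 1 kb window each side of a start in GENCODE M21 (mm10), and regions were intervals merged over the lists by at least 1 bp. All 12 RefSeq windows of the members equalled the genome. Minus log2 rank was fitted with limma 3.58.1 (R 4.3.3, trended variance, all 8 libraries, no covariate), with Benjamini-Hochberg adjustment over all promoters or regions listed in all 8 lists at 0.05. The fit was tested on simulated data. The study's results describe biological replicates from separate hepatocyte preparations, 3 each at 0 and 48 h, and 2 libraries per time point were analysed here. The labels do not tie libraries to mice, so p-values measure the spread between these libraries. Alternatives were the rank over list length, log2 of fold enrichment plus 1, unlisted features at the last rank, -log10 q of at least 1.3, the 50000 strongest intervals, 500 bp windows, summits in the window, 200 bp around summits, 50% coverage, a replicate block and each library left out. Named were all members, per locus the strongest promoter and distal region and the region with the largest 48 h difference, up to 6 pathway genes with the largest 48 h difference among those not overlapping, and the 3 promoters most like each member. Of the pathway genes, 1 is counted but not reported here. Other named regions were chosen after their values were seen. The members and lists were chosen with earlier results of these data known. Python 3.11.15, pandas 2.3.3 and pysam 0.24.0 were used.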

Additional observations from a re-analysis of the deposited data

Results flagged for a closer look

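At 6 places a later time point had both libraries above both undamaged ones and another had both below. Among regions in all 8 lists this was so for 12.0% of the 50 member regions and 6.24% of all 57473. The differences between times below were not tested. For the Pkm promoter, 96 h minus 72 h was 0.70 on the -log2 rank scale, with -0.33 at 72 h and 0.37 at 96 h against 0 h. By rank over list length, though, the 72 h value was 0.024, and by fold enrichment the 96 h libraries overlapped the undamaged pair. The Pck1 region at -9317 bp gave -0.48 at 48 h and 0.25 at 96 h, 0.73 apart. The G6pc region at -2892 bp gave -0.41 and 0.90 at the same times, 1.31 apart. The Pcx region at -8667 bp gave -0.41 at 48 h and 0.87 at 72 h, 1.28 apart. The Ppargc1a intron region at 42213 bp gave -0.58 at 48 h and 0.52 at 96 h, 1.10 apart. The Pklr region at 11277 bp, past the gene, went the other way, at 0.36 at 48 h, -0.43 at 72 h and -0.79 at 96 h, so that the later values minus the 48 h value were -0.79 and -1.15.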

How the results depend on the processing

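No member promoter or region passed the adjusted threshold under any alternative run. Over the alternatives the lowest adjusted p of a member promoter (limma) was 0.0831, for Slc2a2 in the mean of the 3 times without 96 h replicate 1, and the range for that difference was 0.0831 to 1.0. The differences of Slc2a2 and Hk2 kept their sign under all 16 settings in which they could be fitted, and among the 50000 strongest intervals of each list neither promoter was present in all 8, so neither could be fitted. Deviations of same-numbered libraries correlated at -0.0856 to 0.116 between groups, so no pairing by replicate number was seen. Whether same-numbered libraries shared a batch cannot be told from these values, and the labels give none. With the replicate number as a block, coding promoters called fell to 3 at 48 h and 0 for the mean and no member was called. The cause of the changes below was not tested. Coding promoters called, 6 at 48 h, 0 at 72 h, 1 at 96 h and 3 for the mean, became 0 at 48 h, 96 h and the mean by log2 fold enrichment. With unlisted promoters kept they became 3 at 72 h, 7 at 96 h and 8 for the mean. By rank over list length they were 1 at 72 h and 0 at 96 h, with a q filter 1 and 0, among the 50000 strongest 1 and 0 with 5 for the mean, with a 500 bp window 2 at 72 h and 5 for the mean, and with summits in the window 1 at 72 h and 0 at 96 h. Regions called, 7 at 48 h and 0 otherwise, became 0 by fold enrichment, 15 with 200 bp around summits and 2 with 50% coverage at 48 h. With unlisted regions kept they became 43 at 48 h, 6 at 72 h, 1 at 96 h and 19 for the mean, by rank over list length 2 at 72 h, among the 50000 strongest 1 at 72 h and 2 for the mean, and with the q filter 4 for the mean. Leaving out each library in turn gave 1 to 48 coding promoters called at 48 h, 0 to 7 at 72 h, 0 to 6 at 96 h and 0 to 109 for the mean, with 48 and 43 at 48 h without 96 h replicate 1 and 2. It gave 0 to 20 regions at 48 h, 0 to 1 at 72 h, 0 to 0 at 96 h and 0 to 5 for the mean.

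Member promoters higher or lower in both libraries, with each library left out, numbered 2 to 4 higher and 2 to 5 lower at 48 h (16.2% to 31.0% and 29.1% to 47.4% of all coding promoters), 1 to 2 and 3 to 4 at 72 h (14.6% to 27.8% and 32.1% to 48.6%), 2 to 5 and 1 to 4 at 96 h (13.6% to 35.5% and 19.9% to 45.6%), and 1 to 1 and 1 to 2 over all PHx libraries (4.83% to 13.0% and 8.73% to 23.0%). On scales chosen after seeing the data, fold enrichment as deposited gave 1 higher (2.25% of all) and 5 lower (70.6%) at 48 h and 2 higher at 72 h (8.84%), and rank over list length gave 3 higher at 72 h (25.3%) and 2 over all PHx libraries, Pklr and Hk2 (6.91%). Those scales left 2 (rank over list length) and 1 (fold enrichment) of the 4 lower Slc2a2 regions, and leaving out each library gave 4 to 6, where 7.29% to 18.5% of all regions were lower. With unlisted promoters kept, 4 were lower at 48 h (26.3%). Among the 50000 strongest there were 1 higher (14.8%) and 1 lower (30.7%) at 48 h, 0 higher at 72 h (13.2%), 1 higher (12.8%) and 0 lower (20.2%) at 96 h, and 0 and 0 over all PHx libraries (3.56% and 8.03%). Small differences turned sign. By rank over list length, Fbp1 gave 0.25 at 72 h, 0.20 at 96 h and 0.13 for the mean, and Pkm 0.095 at 48 h, 0.024 at 72 h and 0.24 for the mean. By log2 fold enrichment, Fbp1 gave 0.087, 0.067, 0.095 and 0.083 at 48, 72 and 96 h and the mean, and Pkm 0.078 at 48 h and 0.016 for the mean. With the 500 bp window, as with summits in the window, Ppargc1a gave -0.0035 at 72 h and -0.082 at 96 h. With each library left out, differences ranged for Fbp1 from -0.63 to 0.21 at 48 h, -0.53 to 0.31 at 72 h, -0.96 to 0.90 at 96 h and -0.53 to 0.31 for the mean. They ranged for Pcx from -1.34 to 1.39 at 96 h, and for Ppargc1a from -0.33 to 0.33, -0.10 to 0.16, -0.37 to 0.72 and -0.11 to 0.25. For Pklr they ranged from -0.09 to 0.40 at 72 h and -0.036 to 0.42 at 96 h, and for Pkm from -0.25 to 0.14 at 48 h and -0.067 to 0.061 for the mean. With 2 libraries a time point the test has little power, and the lists carry no read depth, so a difference that missed the threshold is not shown to be absent.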
